A study of Mus musculus with 4 samples.

Results

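Slc39a8, Slc39a14, Slc30a1, Mtf1, Mt1, Mt2 and Mt3 are the zinc importers, the zinc exporter, the zinc-sensing transcription factor and the metallothioneins of a zinc axis that has been tied to cartilage breakdown in osteoarthritis. Their mRNA levels were read in primary mouse chondrocytes by all array probes whose accession is a RefSeq transcript of 1 of these genes. This gave 9 probes for 7 of the 37042 genes on the array, 3 probes for Mtf1 and 1 for each of the others, each printed as 1 spot. Of the 9 probes, 8 were well above background on all 4 arrays by the scanner software's own call, no spot was saturated, and no spot was marked as an outlier.

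The cells came from 6-day-old C57BL/6J littermates. Rela fl/fl mice, which carry the floxed allele without Cre and are called control cells below, were compared with Prrx1-Cre; Rela fl/fl mice (cKO), in which the Prrx1 promoter drives Cre in limb mesenchyme. Chondrocytes of each genotype were cultured for 3 days with TNF at 10 ng ml−1 or without it, and 1 array was hybridised for each of the 4 combinations. No value has a replicate, so no test was run and every difference below is a difference between single arrays.

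Cells take up zinc through ZIP (Slc39a) transporters and release it through ZnT (Slc30a) transporters. When cytosolic zinc rises, the zinc-finger protein Mtf1 binds metal response elements (MREs) and activates genes that store or export the metal, the metallothioneins and Slc30a1 among them. In mouse models of osteoarthritis, the importer Slc39a8 (ZIP8) is known to raise chondrocyte zinc, and Mtf1 then induces matrix-degrading enzymes.

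The promoters of these genes show where Mtf1 could bind. The MRE core was searched as TGCACNC and TGCGCNC on both strands, from 250 bases before to 50 bases after the start sites in the RefSeq annotation of GRCm38.p6, which gave windows for 6 of the 7 genes, all but Slc39a14. These sites are the first base of the gene for Mt2, Mt3 and Mtf1, but lie 206 bases into the gene for Mt1, 84 for Slc30a1, and 8397 and 8775 for Slc39a8, whose first base was not covered. Mt2 had 4 matches, Mt1 3, Slc30a1 2 and Mt3 1, whereas Mtf1 had 0. For Slc39a8, 1 of 2 start sites had 1 match and the other had 0. Among the 32851 windows of this length, 25.7% held at least 1 match, 7.11% at least 2, 1.97% at least 3 and 0.517% at least 4. The same windows were searched for the NF-κB consensus, which 8.46% of all windows held, and none of the windows of these genes held it. At that share so few windows would often hold none, and the first base of Slc39a8 was not covered. No conclusion is drawn from this search. A match is a string of letters in the window and was not tested for binding. The matches of the genes whose TNF differences are described first are given with the core in capitals and 10 bases on each side, all on the plus strand of the genome. Cores that begin with TGC lie on that strand, and those that end with GCA on the other.
Mt2, chr8:94172385-94172411: gcatcgcctcTGCACCCggcccctcgg
Mt2, chr8:94172480-94172506: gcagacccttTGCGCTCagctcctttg
Mt2, chr8:94172558-94172584: gggggagggcGTGTGCAggctctgtcc
Mt2, chr8:94172612-94172638: aattcgggtcGTGCGCAggcccagggg
Mt1, chr8:94179056-94179082: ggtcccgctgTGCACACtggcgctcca
Mt1, chr8:94179081-94179107: cagggagctcTGCACTCcgcccgaaaa
Mt1, chr8:94179099-94179125: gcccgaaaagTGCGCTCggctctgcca
Slc30a1, chr1:191906728-191906754: cgggggttccGAGTGCAaagcaaagtt
Slc30a1, chr1:191906801-191906827: cctccgggccGAGCGCAgtcgccgcgg
Slc39a8, chr3:135825628-135825654: tatctctaaaGGGTGCAgggcctgatc

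Before any comparison, intensities were divided by the 75th percentile of their array, which lay between 589 and 633 intensity units, so a signal of 1 is that percentile. From 173 to 215 probes per array, of 399 spotted 10 times, differences between 2 arrays had a technical spread of 0.14 on the log2 scale, which does not cover the spread between cultures. Differences beyond 2 such spreads (0.28) are pointed out, and a log2 difference of 1 is called past the limit. All 4 arrays shared 1 slide and 1 scan. Rela itself was not lower on the cKO-labelled arrays, where it was higher by 0.26 without TNF and 0.21 with TNF. Whether its probe lies within the deleted part of the gene is not known here, so this value does not check the labels. Genotypes are named by their labels and the cKO arrays are called cKO-labelled. Between 1.04% and 10.7% of the spots of an array lay in patches of neighbouring spots that were bright on that array alone, and for each of the 7 genes it is stated below where its spot lay in 1. Xist was well above background on neither cKO-labelled array but on both others, and the Y-linked gene Ddx3y was higher by 1.49 and 1.70 on the cKO-labelled arrays, so sex and genotype label cannot be told apart. The 4 genes chosen as a check of the TNF response (Ccl2, Nfkbia, Tnfaip3 and Cxcl1) were all higher with TNF in control cells, by 1.51 to 5.02. On the cKO-labelled arrays their TNF differences were 0.51 to 3.17, and 2 of 4 passed the limit upwards, as 0.759% of all genes did. With TNF all 4 were lower on the cKO-labelled array than in control cells, at -2.30 to -0.71, and 3 passed the limit downwards, as 3.09% of all genes did.

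The cells had the markers of their label. All 6 chondrocyte markers (Col2a1, Acan, Sox9, Col9a1, Matn1 and Comp) were well above background on every array, as were the 3 fibrillar collagens of fibroblasts. Ptprc, which defines leukocytes, and Cdh5, which defines endothelium, were well above background on none, although Adgre1, Csf1r, Itgam, Pecam1 and Kdr were on all 4. The Adgre1 spot of the cKO-labelled array without TNF lay in a patch with 17 bright neighbours.

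TNF was accompanied by higher signal of Slc39a8, Slc30a1 and Mt2 in control cells. Slc39a8 was higher by 1.005 on the log2 scale, Slc30a1 by 0.68 and Mt2 by 0.66, and these were the 3 of 7 genes beyond 2 technical spreads, compared with 11.4% of all 23406 genes read, and none of the 7 was lower by as much, as 13% of all genes were. Only Slc39a8 passed the limit, which 2.39% of all genes passed upwards and 4.27% downwards. The median difference of the 7 genes was 0.24, against 0.01 for all genes. Of the 7, 6 were above 0, while 46.9% of all genes lay at 0.018 or above. On the cKO-labelled arrays, 0 of the 7 genes passed the limit with TNF, as 0.759% of all 24902 genes did upwards and 4.27% downwards. Mt2 at 0.57 and Mt1 at 0.28 were beyond 2 spreads there, compared with 12.3% of all genes upwards and 15.9% downwards. The median of the 7 genes was 0.21 against 0.05 for all genes. There 7 of 7 were above 0, while 58.8% of all genes lay at 0.004 or above. As bulk cultures were read, fewer cells of a type and less RNA per cell cannot be told apart in any of these values.

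**Figure D1:**
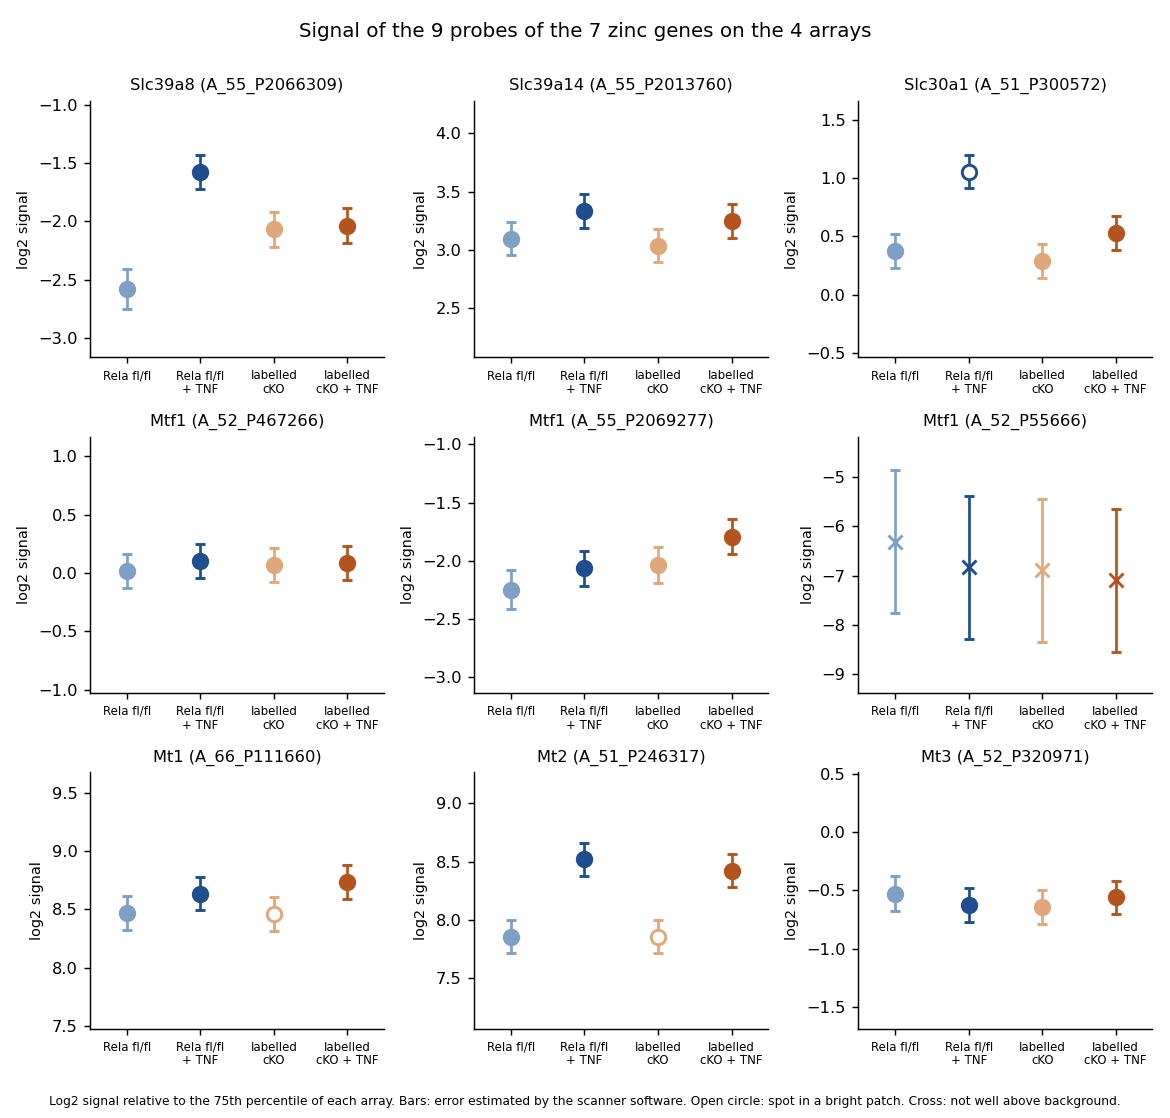
Log2 signal of each of the 9 probes on the 4 arrays, relative to the 75th percentile of the array. Each point is 1 spot and each bar is the error estimated by the scanner software; open circles lie in a bright patch and crosses are not well above background. Panels span the same log2 range except that of the Mtf1 probe with crosses. Slc39a8 lies highest on the control array with TNF (-1.58), and Mt2 is higher on both arrays with TNF.

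Slc39a8 encodes ZIP8, a plasma membrane importer of zinc and other divalent metals. Its probe (NM_001135150) had an intensity of 102 ± 12.1 in control cells and 206 ± 21.1 after TNF, the error being the software's estimate for 1 spot. On the cKO-labelled arrays the intensity was 151 ± 15.8 without TNF and 143 ± 14.8 with TNF. As signal, the order from low to high was Rela fl/fl without TNF (0.167), labelled cKO without TNF (0.238), labelled cKO with TNF (0.243) and Rela fl/fl with TNF (0.335). The cKO-labelled arrays, in the middle of that order, differed by less than 1 technical spread, and each of the other neighbours differed by more than 2.

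The TNF difference of Slc39a8 was 1.005 ± 0.23 (2.01-fold) in control cells and 0.03 ± 0.21 on the cKO-labelled arrays, and the latter minus the former was -0.97. Of the 20481 genes well above background on all 4 arrays, 193 (0.942%) had a TNF difference at least as high in control cells. Among the 14917 of them without a spot in a patch, as is Slc39a8, 49 (0.328%) did. The TNF difference on the cKO-labelled arrays minus that in control cells was at least as low in 484 of the 20481 genes (2.36%) and in 161 of the 14917 (1.08%). The probe was dim, with raw medians of 200.5 to 297 over a local background of 40.5 to 42 intensity units, and probes of similar signal had a technical spread of 0.19. The spots around it were higher with TNF by a median of 0.03 or 20.6 intensity units in control cells, against 104 units for Slc39a8. The part of this shift in the result was not tested. The TNF difference of Slc39a8 passed the limit narrowly and fell short of it with the authors' scaled values (0.97) and with normexp background correction (0.56).

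Slc39a14 encodes ZIP14, an importer of zinc, iron and manganese that inflammation induces in liver. Its probe (NM_001135151) had a signal of 8.55 in control cells, 10.09 with TNF, 8.21 on the cKO-labelled array and 9.49 there with TNF. Both arrays with TNF were above both without, by 0.24 in control cells and 0.21 on the cKO-labelled arrays, and each of these was within 2 technical spreads. The genotypes differed by -0.06 without TNF and -0.09 with it.

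Slc30a1 encodes ZnT1, which exports zinc across the plasma membrane and is a known Mtf1 target with MREs in its promoter. Its probe (NM_009579) had an intensity of 793 ± 79.7 in control cells and 1279 ± 128 with TNF, and of 772 ± 77.4 and 851 ± 85.3 on the cKO-labelled arrays. The signal was 1.30, 2.08, 1.22 and 1.44 in the same order, so the control array with TNF stood above the other 3. The TNF difference was 0.68 ± 0.20 in control cells and 0.24 ± 0.20 on the cKO-labelled arrays, a difference of -0.44 between them. The spot lay in a patch of the control array with TNF, with 12 bright spots among its neighbours. The neighbouring spots were higher on that array by a median of 0.19 or 50.9 intensity units, against 486 units for Slc30a1, and the part of the patch in the result was not tested.

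Mtf1 did not differ by more than 2 technical spreads in any of the 4 comparisons. Its probe with the highest mean signal (A_52_P467266) had a signal of 1.01 in control cells, 1.07 with TNF, 1.05 on the cKO-labelled array and 1.06 with TNF there. The TNF differences were 0.08 ± 0.21 and 0.02 ± 0.20, and all 4 arrays lay within 1 technical spread of each other. The second probe (A_55_P2069277) had a signal of 0.211, 0.239, 0.244 and 0.289 in the same order, with TNF differences of 0.18 and 0.24 and genotype differences of 0.21 and 0.27, each within 2 spreads. Its lowest array, of control cells without TNF, and its highest, labelled cKO with TNF, were 0.45 apart. The third (A_52_P55666) was not well above background on any array. Mtf1 acts through metal binding and movement to the nucleus, which mRNA levels do not read.

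Mt1 and Mt2 encode the small cysteine-rich proteins that bind zinc in most cells and are the classical targets of Mtf1. Together with Mt3 they lie in a cluster on chromosome 8. The Mt2 probe (NM_008630) had an intensity of 141739 in control cells and 225812 with TNF, and of 146766 and 202432 on the cKO-labelled arrays. Its signal was 232 without TNF in either genotype, 367 with TNF in control cells and 344 with TNF on the cKO-labelled array, so the arrays with TNF stood above those without. The TNF difference was 0.66 ± 0.20 (1.58-fold) in control cells and 0.57 ± 0.20 (1.48-fold) on the cKO-labelled arrays. These differed by -0.10, within 1 technical spread. They were more than 1 spread apart without scaling (0.67 and 0.46), with quantile normalization (0.65 and 0.43) and with the authors' scaled values (0.63 and 0.46).

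Of the 20481 genes well above background on all arrays, 1.93% had a TNF difference at least as high as Mt2 in control cells and 1.64% on the cKO-labelled arrays. The Mt2 spot lay in a patch of the cKO-labelled array without TNF, with 14 bright neighbours. Its neighbours were higher there than on the control array without TNF by a median of 0.52 or 96.5 intensity units, and Mt2 differed by 0.00 between these arrays. Between the cKO-labelled arrays the neighbours differed by a median of -0.34 with TNF, and Mt2 by 0.57. The part of the patch in the Mt2 values was not tested.

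The Mt1 probe (NM_013602) had an intensity of 216094 in control cells and 244673 with TNF, and of 222401 and 251248 on the cKO-labelled arrays. The signal was 354, 398, 352 and 426 in that order, again with both arrays with TNF on top. The TNF difference was 0.17 ± 0.20 in control cells and 0.28 ± 0.20 on the cKO-labelled arrays, the latter just beyond 2 technical spreads and within them under other scalings (0.17 with quantile normalization). Its spot on the cKO-labelled array without TNF lay in a patch with 4 bright neighbours.

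Mt3 encodes the metallothionein best known from brain. Its probe (NM_013603) had a signal of 0.694 in control cells, 0.647 with TNF, 0.643 on the cKO-labelled array and 0.678 with TNF there. All 4 arrays lay within 1 technical spread of each other, and the TNF differences were -0.10 and 0.08. Mt4, the metallothionein of squamous epithelium, is no member of the 7 but lies in the same cluster, and had TNF differences of 0.60 and -0.11. Its signal was 0.221 in control cells and 0.335 with TNF, and 0.328 and 0.304 on the cKO-labelled arrays, so the control array without TNF was the low 1. Its spot lay in a patch of the control array with TNF, whose part in the 0.60 was not tested, and in none on the other arrays, where the genotypes differed by 0.57 without TNF.

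**Figure D2:**
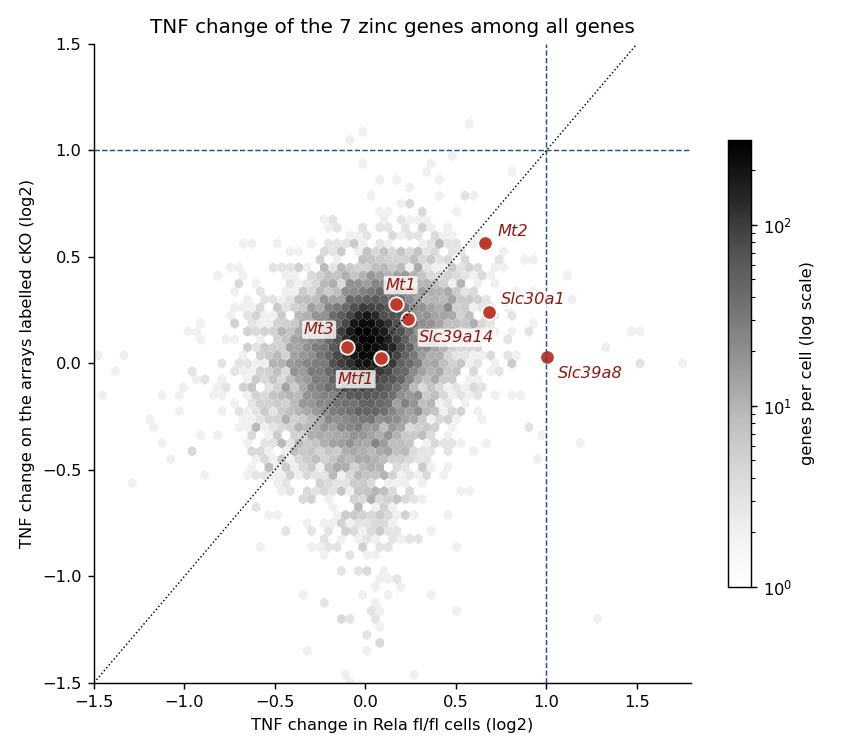
TNF difference (log2) in control cells on the x axis and on the cKO-labelled arrays on the y axis. Red points are the 7 zinc genes, and the grey cells count the 20481 genes well above background on all 4 arrays, as far as they lie within the axes. Dashed lines mark a log2 difference of 1 and the dotted line equal differences. Mt2 lies near the dotted line (0.66 and 0.57), and Slc39a8 lies on the dashed line at 1.005 with 0.03 on the y axis.

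By genotype, 0 of the 7 genes passed the limit on the arrays without TNF, as 3.51% of all 24276 genes did upwards and 4.16% downwards. Slc39a8 was higher on the cKO-labelled array by 0.52 ± 0.23, the only 1 of the 7 beyond 2 technical spreads, as 16.7% of all genes were upwards and 13.7% downwards. The other 6 genes lay between -0.11 and 0.05. With TNF, 0 of the 7 genes passed the limit, as 1.16% of all 24511 genes did upwards and 3.09% downwards. Slc30a1 was lower on the cKO-labelled array by a log2 difference of -0.53 ± 0.20 and Slc39a8 by -0.46 ± 0.21, both beyond 2 spreads, as 12.4% of all genes were downwards and 16.9% upwards. The Slc30a1 spot of the control array with TNF lay in a patch, whose part in this value was not tested. The other 5 genes lay between -0.10 and 0.10. The sign of the Slc39a8 difference thus turned between the arrays without and with TNF. For probes of its signal 2 technical spreads are 0.37, and its differences lay within that with normexp (0.23 and -0.30) and, with TNF, with quantile normalization (-0.35). Each genotype comparison shares its arrays with the TNF comparisons, so a high or low value on 1 array enters both.

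The cell type markers differed between the same arrays. All 6 chondrocyte markers were lower on the cKO-labelled arrays, by a median of -0.43 without TNF and -0.38 with it, with Col2a1 at -0.03 and -0.01. Of the 6, 3 and 4 were beyond 2 technical spreads downwards, against 13.7% and 12.4% of all genes. These include Col9a1, at -0.87 and -0.47, whose spot on the control array without TNF lay in a patch with 25 bright neighbours and a median neighbour difference of -1.70 in the comparison without TNF. Its other probe, with no spot in a patch, gave -1.24 and -1.13, both past the limit. They also include Acan, at -0.61 and -0.48, whose spot on the cKO-labelled array with TNF lay in a patch with 3 bright neighbours. Matn1, a cartilage matrix protein, was past the limit at -1.86 and -1.19. With TNF the 6 markers had a median difference of -0.14 in control cells and 0.01 on the cKO-labelled arrays. In control cells 2 of 6 were beyond 2 spreads downwards, as 13% of all genes were. On the cKO-labelled arrays 1 of 6 was beyond them upwards, as 12.3% of all genes were. The summed signal of the 6 was 1425 and 1374 in control cells without and with TNF, and 1160 and 1184 on the cKO-labelled arrays. For the 3 fibroblast collagens it was 634 and 646, and 584 and 563. Leukocyte markers summed to 38.3, 35.4, 43.8 and 34.8 on the arrays of control cells without and with TNF and those labelled cKO without and with TNF. Of these, 1 Itgam probe had 35.1, 32.4, 40.4 and 31.8, while the other Itgam probes lay between 0.041 and 0.55. Endothelial markers summed to 18.4, 18.0, 17.7 and 20.7, nearly all from 1 Kdr probe (18.2, 17.9, 17.5 and 20.5), and the other Kdr probe was well above background on none of the arrays. The part of these shifts in the genotype and TNF differences of the zinc genes was not tested.

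Of the 14 ZIP genes, which import zinc into the cytosol from outside the cell or from organelles, 12 were well above background on at least 1 array of control cells, and 2 passed the limit upwards with TNF, Slc39a8 and Slc39a4, as 2.39% of all genes did. Slc39a4, the intestinal zinc importer, had an intensity of 36.0 (not well above background), 1652, 28.5 and 31.5 on the arrays of control cells without and with TNF and those labelled cKO without and with TNF. Its single bright spot had 28 bright neighbours on the control array with TNF, where the neighbouring spots were higher by a median of 1.93, so its difference of at least 45.5-fold with TNF stands beside a patch whose part in it was not tested. The ZIP list had a median TNF difference of 0.21 in control cells and of 0.09 over 13 genes on the cKO-labelled arrays, where 0 passed the limit, as 0.759% of all genes did upwards and 4.27% downwards.

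Slc39a10, a plasma membrane importer chosen here after its values were seen, had a signal of 0.479 and 0.669 in control cells without and with TNF and of 0.509 and 0.684 on the cKO-labelled arrays. It was higher with TNF by 0.48 and 0.42, both beyond 2 technical spreads, and no spot of it lay in a patch. In the genotype comparisons, 0 of the ZIP genes passed the limit without TNF, as 3.51% of all genes did upwards and 4.16% downwards. With TNF, Slc39a4 was lower at -5.65, with the same bright spot in it.

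Of the 10 ZnT genes, which move zinc out of the cytosol, 7 were well above background on at least 1 array of control cells, and 0 passed the limit with TNF, as 2.39% of all genes did upwards and 4.27% downwards. Their median was 0.08 in control cells and 0.05 over 8 genes on the cKO-labelled arrays. Slc30a3 passed the limit downwards with TNF on the cKO-labelled arrays, as 4.27% of all genes did. Its intensity there was 48.6 without TNF, in a patch, and 10.4 and not well above background with TNF. Slc30a1, at 0.68, had the highest TNF difference of the ZnT list in control cells, with its spot on the array with TNF in a patch. In the comparisons between genotypes 0 of the ZnT genes passed the limit, as 3.51% of all genes did upwards and 4.16% downwards without TNF and 1.16% and 3.09% with it, and the medians were -0.06 without TNF and -0.09 with it.

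**Figure D3:**
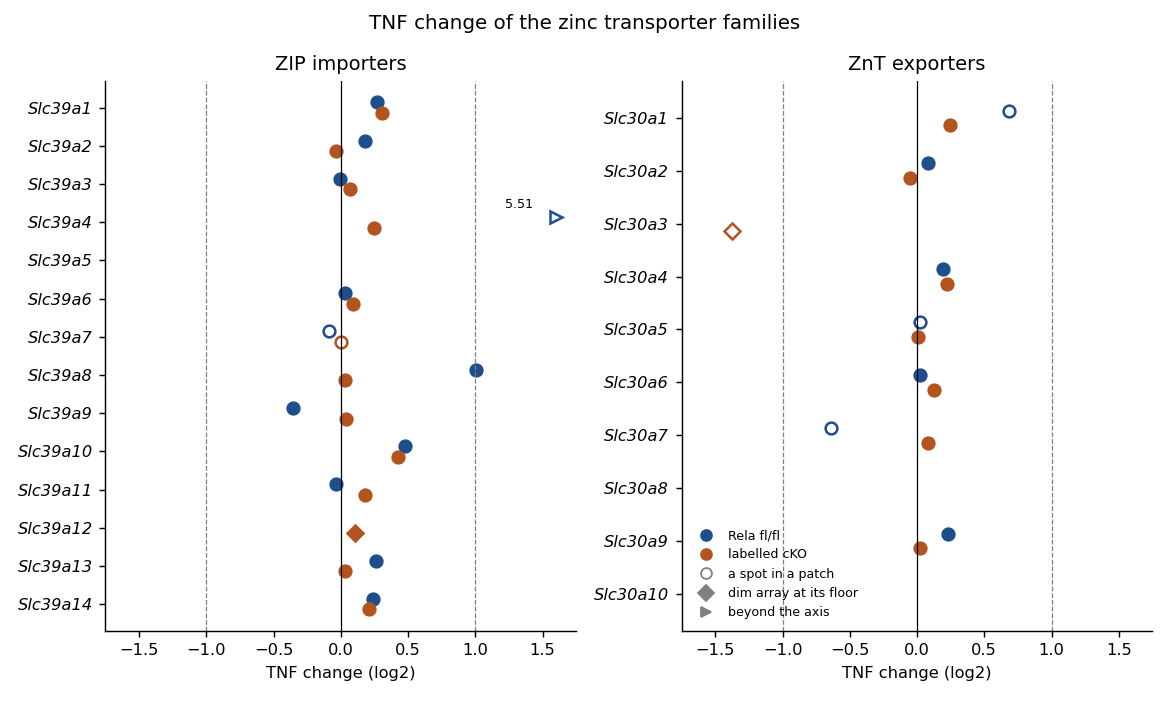
TNF difference (log2, x axis) of the 14 ZIP importers and the 10 ZnT exporters in control cells (blue) and on the cKO-labelled arrays (brown). Open symbols have a spot in a bright patch, diamonds have 1 array not well above background, the triangle marks the value of 5.51 for Slc39a4 beyond the axis, and a gene without a symbol was not well above background on either array. Away from patches, Slc39a8 at 1.005 in control cells is the point on the dashed line at a log2 difference of 1.

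Other genes described as bound or regulated by Mtf1 (Slc39a10, Ndrg1, Csrp1, Selenow and Gclc) were all read, and 0 of 5 passed the limit in any of the 4 comparisons, where the shares of all genes lay between 0.759% and 4.27% in each direction. Their median was 0.12 with TNF in both genotypes and 0.09 in both genotype comparisons, and Slc39a10, with TNF, was the only 1 beyond 2 technical spreads, as 11.4% of all genes were upwards in control cells and 12.3% on the cKO-labelled arrays.

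The matrix-degrading enzymes known downstream of Slc39a8 and Mtf1 in cartilage differed among themselves. Mmp9 and Mmp12 were well above background on none of the arrays. Mmp3 (stromelysin) passed the limit with TNF in control cells (4.64) and on the cKO-labelled arrays (2.56), and was lower on the cKO-labelled arrays at -1.30 without TNF and -3.38 with TNF. Mmp13, the main collagenase of cartilage, had a signal of 6.08 in control cells and 12.9 with TNF, and of 12.5 and 11.5 on the cKO-labelled arrays.

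The array of control cells without TNF was thus the low 1 for Mmp13, as it was for Slc39a8. For Slc39a8 the control array with TNF also stood above both cKO-labelled arrays. Mmp13 was higher with TNF by 1.09 in control cells, with -0.12 on the cKO-labelled arrays, and the genotypes differed by 1.04 without TNF and -0.17 with it. Both values above 1 rest on the control array without TNF. Adamts5, an aggrecanase, had values of -0.07 and -0.56 with TNF in control cells and on the cKO-labelled arrays, and its other probe gave 0.34 and -0.36, with its spot on the control array with TNF in a patch with 3 bright neighbours. Of the 3 enzymes read, 2 passed the limit upwards with TNF in control cells, as 2.39% of all genes did.

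Slc39a8 was the only 1 of the 7 genes whose signal ranged by more than 1 on the log2 scale. The genes with the most similar profile were sought among 9664 genes with a symbol, well above background on all 4 arrays and free of patches, by the Euclidean distance of centred log2 values over the 4 arrays. Adcy5, an adenylyl cyclase, was nearest at a distance of 0.08, followed by Nfkbiz, which encodes the NF-κB regulator IκBζ, at 0.15 and Cemip, a hyaluronan-degrading protein, at 0.15. Their TNF differences were 1.02 and -0.04, 0.89 and 0.16, and 0.81 and 0.12 in control cells and on the cKO-labelled arrays. With 4 arrays, 290 of the 9664 genes lay within a distance of 0.5.

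**Figure D4:**
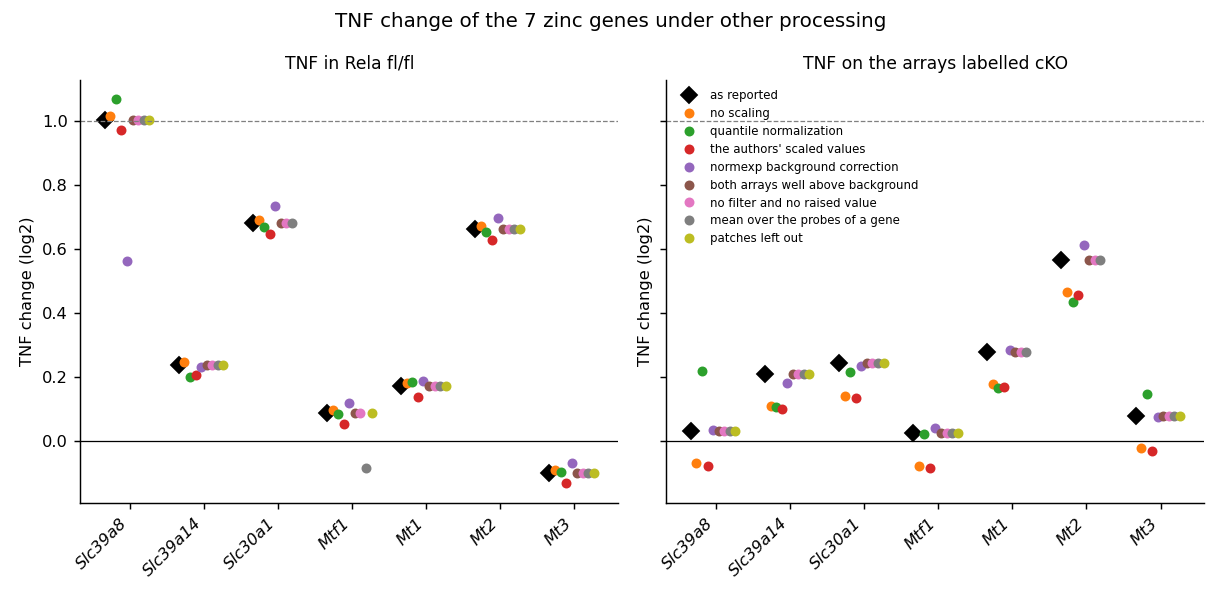
TNF difference (log2, y axis) of each of the 7 zinc genes (x axis) as reported (black diamonds) and under each other way of processing (coloured points), in control cells and on the cKO-labelled arrays. The dashed line marks a log2 difference of 1. In control cells Slc39a8 spans 0.56 to 1.07, Slc30a1 0.65 to 0.73 and Mt2 0.63 to 0.70.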

How the data were processed

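Total RNA of primary chondrocytes was labelled with Cy3 and read on SurePrint G3 Mouse 8 × 60K arrays, 1 per combination of genotype and TNF. The deposited files give the authors' intensity per spot, processed by Agilent Feature Extraction 10.10.1.1 (named in the submitters' processing notes), with background subtracted, and a table of scaled intensities that equalled the processed intensity times 1.77 to 1.83 by array. From the processed intensity, log2 values minus the 75th percentile of the array's 59305 transcript spots were computed, without outlier spots. Of 55681 probes, 27235 were given a symbol through accessions in the RefSeq table of GRCm38.p6. The design was drawn on another build, so gene positions were not taken from it. The probe with the highest mean stood for a gene. A gene was read where the brighter array was well above background, and a dimmer signal not above background was raised to the lowest that was. Errors of a difference combine the software's errors of 2 spots.

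Patches were defined by spots with at least a 2-fold excess over all 3 other arrays, and a spot counted as inside with 3 or more such spots among the 54 others up to 5 rows and 2 columns away. Neighbouring spots are those of the same window. With 1 array per group no p-value was computed, and the number of arrays limits the precision. The genes, lists and rules were chosen with earlier results of these data known. Genes were named if they were 1 of the 7 or passed the limit within a list, or by likeness to 1 that ranged by more than 1. Rela was named as the targeted gene, and Slc39a10, Mt4, Adamts5, Itgam, Kdr, Col2a1, Col9a1 and Acan are given with values outside this rule, after their values were seen. The sex-linked genes, ranks and neighbour medians were added after the files were seen. Alternatives were no scaling, quantile normalization, the authors' values, normexp with an offset of 50 on median intensities (no mean signal was used), other filters, limits and probe summaries, and patches left out. The counting rule was tested on simulated data. The software was limma 3.58.1 in R 4.3.3 for quantile and normexp, and pandas 2.3.3, numpy 2.4.6 and Python 3.11.15 for the rest.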

Additional observations from a re-analysis of the deposited data

Results flagged for a closer look

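The genotype difference of Slc39a8 had opposite signs at the 2 treatments. It was 0.52 without TNF and -0.46 with TNF, on cKO-labelled arrays against Rela fl/fl, and both lie beyond 2 technical spreads for probes of its signal (0.37). The difference between them was not tested, as each condition has 1 array. None of its 4 spots lay in a patch. Normexp background correction gave 0.23 and -0.30, both within 0.37, and quantile normalization gave 0.50 and -0.35, the latter within it. The signs were the same under both.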

How the results depend on the processing

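The number of the 7 genes past the limit with TNF in control cells was 1 as reported, 0 with the authors' scaled values, 0 with normexp background correction, 0 at a 3-fold limit and 3 at a 1.5-fold limit, where Slc30a1 and Mt2 join Slc39a8. The other limits set these counts by construction. In the other comparisons it was 0 under each alternative run. Of 218 values recomputed for the 7 genes, 102 equal the reported ones because the other filter, probe summary or patch rule does not touch these spots. Of the 116 that differ, 110 lay within 1 technical spread of the reported value, 6 did not, and 0 changed sign from beyond that spread. The TNF difference of Slc39a8 in control cells was 0.56 with normexp, which changes both the input intensity and the offset. The part of each was not tested. Its raw medians in control cells were 200.5 without and 297 with TNF, over local backgrounds of 41 and 42. The processed intensities of 102 and 206 lay below those medians less local background. With normexp its genotype differences were 0.23 without TNF and -0.30 with TNF. On the cKO-labelled arrays the TNF difference of Slc39a8 was 0.22 with quantile normalization. For Mtf1, the mean over its probes, 1 of them not above background, gave -0.09 with TNF in control cells and -0.11 between genotypes without TNF. Without scaling, the TNF difference on the cKO-labelled arrays had a median over all genes of -0.05, against 0.05 as reported, and there Slc39a8, Mtf1 and Mt3 differ in sign between scalings. With patches left out, 6 further values could not be had. No paired analysis was possible because each group has 1 array and the results come from no test. Single arrays cannot show whether differences exceed the spread between cultures.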
